A study of Mus musculus with 6 samples.

Results

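The genes described here are 10 thiol redox enzymes, the glutaredoxins *Glrx*, *Glrx3* and *Glrx5*, the thioredoxin *Txn1* with its reductase *Txnrd1*, and the peroxiredoxins *Prdx1*, *Prdx2*, *Prdx4*, *Prdx5* and *Prdx6*. They were taken by symbol from the 23420 genes of an RNAseq table of activated mouse CD4+ T cells, and the set was chosen by the fold changes of *Glrx*, which was lower in both treated groups than in the control. For these genes the comparisons of each treatment with the control are therefore descriptions with no test. The difference between the treatments took no part in the choice and was tested. All 10 genes were among the 10607 that passed the filter on low counts.

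Naive splenic CD4+CD62L+ T cells of 12 week old BALB/c mice were purified on magnetic beads, activated with plate-bound anti-CD3/28 and transduced with lentiviral shRNA after 24 h. The 3 groups were control (scrambled) shRNA, control shRNA with 3.7 µM harmine, and *Dyrk1a* shRNA without harmine, with 2 libraries each. Every group therefore received virus, and every group was fed with medium and IL-2, without polarizing cytokines, 24 h after the virus and harvested 48 h later. Harmine is a plant alkaloid that inhibits DYRK1A and other DYRK and CLK kinases as well as monoamine oxidase A, while the shRNA is directed against the mRNA of the kinase. The hairpins used for these libraries and the share of cells that carried virus are not given in the sources used here. Nor do the labels say whether replicates came from separate cultures or animals, so p-values measure the spread between these libraries, which may be technical. The libraries are of whole cultures, in which fewer cells of a type and less RNA per cell cannot be told apart.

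Thiol redox enzymes pass electrons, in the end from NADPH, to oxidized cysteines and to peroxides. Glutaredoxins draw on glutathione and remove it from modified cysteines, and some of them hold an iron-sulfur cluster that they hand on. Thioredoxin reduces disulfides and is itself reduced by thioredoxin reductase, while peroxiredoxins reduce hydrogen peroxide with a reactive cysteine that thioredoxin or glutathione restores. T cells make reactive oxygen species when their receptor is engaged, and these enzymes set how far such signals travel and protect dividing cells.

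*Glrx* and *Prdx1* were the only members for which all 4 treated libraries lay below both controls, so their promoter windows are shown. The windows are from RefSeq on GRCm38.p6 and run from 250 bases before to 50 bases after the annotated start, chr13:75839635-75839934 on the plus strand for *Glrx* and chr4:116685349-116685648 on the plus strand for *Prdx1*. The capitals mark TGACTCA, the AP-1 element, read on either strand. In the second stretch of capitals in *Prdx1* the element lies on the minus strand inside a match to TGACNNNGC, the core of the antioxidant response element, and that whole match is in capitals.
Glrx: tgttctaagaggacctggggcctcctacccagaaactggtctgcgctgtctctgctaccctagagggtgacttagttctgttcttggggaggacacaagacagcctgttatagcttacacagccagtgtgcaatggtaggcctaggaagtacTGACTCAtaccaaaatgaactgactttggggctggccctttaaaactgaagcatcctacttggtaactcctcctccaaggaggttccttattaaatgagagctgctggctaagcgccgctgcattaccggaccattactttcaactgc
Prdx1: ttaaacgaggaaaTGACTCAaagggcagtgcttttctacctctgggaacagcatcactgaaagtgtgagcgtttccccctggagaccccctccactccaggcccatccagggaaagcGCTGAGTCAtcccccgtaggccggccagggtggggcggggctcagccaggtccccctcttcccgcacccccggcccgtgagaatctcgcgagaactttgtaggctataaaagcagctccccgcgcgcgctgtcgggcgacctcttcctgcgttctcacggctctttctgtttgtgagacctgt
The AP-1 element began 98 bases before the start in *Glrx* and 237 and 131 bases before it in *Prdx1*. Of 32851 RefSeq promoter windows of this length, 5.2% held TGACTCA on either strand, and 3 of the 12 windows of the members did, a nearly identical alternative window of *Glrx* included. TGACNNNGC was in 12.4% of all windows and in 2 of the 12, those of *Prdx1* and of 1 of the 3 starts of *Txnrd1*. TGGAAA, the core of the NFAT site, was in 21.4% of all windows and in the window of *Txn1* alone among the members, at 207 and 47 bases before its start. TATAAA was in 13.6% of all windows and in those of *Txn1* and *Prdx1*. These matches describe the letters of the windows, and binding was not measured. *Prdx6* had no window in the table used.

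The libraries held 1096345 to 3747648 counts, and the 2 controls were the 2 smallest. Control replicate 1 stood apart from control replicate 2 in short transcripts. The median log2 difference between them was 1.24 over 78 ribosomal protein genes and 0.73 over 1220 genes with transcripts under 1200 nt, against 0.05 and 0.08 between the harmine libraries and 0.03 and 0.03 between the *Dyrk1a* shRNA libraries. *Dyrk1a* itself was at 58.2 and 82.5 CPM (counts scaled to library size, with TMM factors) in the controls, 74.6 and 77.4 with harmine and 60.0 and 61.7 with *Dyrk1a* shRNA. Its mean was lowest with the shRNA, the controls overlapped that group, and against all 4 libraries with control shRNA its log2 fold change was -0.26 (standard error, SE, 0.18; edgeR's quasi-likelihood test, Benjamini-Hochberg adjusted p = 0.762). All 13 CD4 T cell identity genes were detected, with summed levels of 4362 to 4651 CPM over the 6 libraries. Markers of other cells were low in every library, with sums of 33.3 to 51.3 CPM for 10 B cell genes, 25.9 to 72.6 for 13 myeloid genes, all detected, 38.7 to 89.5 for 9 CD8 T and NK cell genes, of which *Klra1* was at 0, and 29.7 to 46.9 for 13 erythroid and platelet genes, of which *Hba-a2* and *Hbb-b1* were at 0.

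Per transcript length the members spanned a wide range of levels. *Prdx2* had the highest mean level, 354 in counts divided by length and scaled to 1 total for every library (lowest library 323, highest 391), above 96.9% of the genes tested. *Txn1* followed at 264 (208 to 346), then *Prdx5* at 199 (164 to 235) and *Prdx4* at 198 (180.4 to 210). *Glrx* came next at 142 (91.7 to 204), with *Prdx1* at 138 (117 to 171) and *Prdx6* at 109.9 (91.3 to 129.8). The lowest were *Glrx3* at 56.7 (45.8 to 65.2), *Glrx5* at 44.95 (40.9 to 51.1) and *Txnrd1* at 20.5 (14.7 to 25.4), the last close to the middle of all genes at the percentile of 52.9. Neighbours in this order overlapped in their ranges over the libraries, except *Prdx6* with *Glrx3* and *Glrx5* with *Txnrd1*. The 10 genes together took 0.111% to 0.149% of the counts of a library. *Glrx* had the widest spread of CPM across libraries, its highest library being 2.44 times its lowest, and *Prdx6* the narrowest at 1.38 times.

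**Figure D1:**
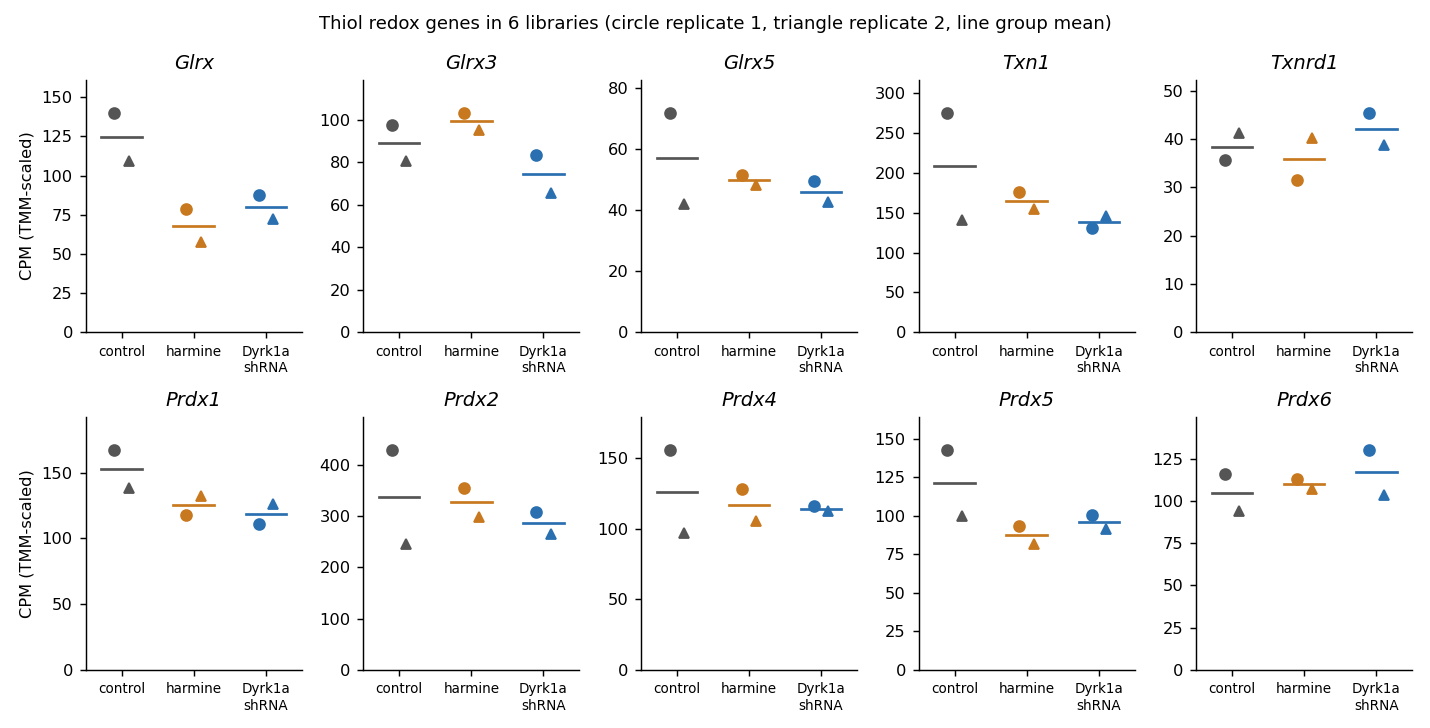
Level of each of the 10 thiol redox genes in CPM (linear axes from 0) in the 6 libraries, by group, with circles for replicate 1, triangles for replicate 2 and a line at the group mean. *Glrx* lies below both controls in all 4 treated libraries, at 57.4 to 87.9 CPM against 109 and 140.2, while for *Txn1* and *Prdx2* the 2 controls lie further apart than any treated library does from its partner.

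*Glrx*, the cytosolic glutaredoxin that removes glutathione from protein cysteines, is encoded at chr13:75839868-75850154 on the plus strand (GRCm38, GENCODE M21, as for all genes below). It was at 140.2 and 109 CPM in the controls, 78.8 and 57.4 with harmine and 87.9 and 72.3 with *Dyrk1a* shRNA, from 130 to 265 counts a library. Both treated groups lay wholly below the controls, and they overlapped each other. The mean was 125 CPM ± 21.8 (SD, n = 2) in the control, 68.1 ± 15.1 with harmine and 80.1 ± 11.02 with *Dyrk1a* shRNA. In the fit its log2 fold change was -0.88 with harmine (SE 0.21, 95% interval -1.34 to -0.43), a fold of 0.54, and -0.65 with *Dyrk1a* shRNA (SE 0.21, interval -1.10 to -0.20), a fold of 0.64. In order from the lowest fold change, *Glrx* ranked 194 with harmine and 601 with *Dyrk1a* shRNA among the 10607 genes. Both fold changes share the same 2 control libraries. Of the marker sums above, that of B cells was also lower with harmine without overlap, at 33.3 to 36.1 CPM against 40.1 to 51.3 in the controls and 42.0 to 47.0 with *Dyrk1a* shRNA, and the sums of the other cells overlapped the controls in both treatments. Of the 5 myeloid genes tested, 4 were below 0 in each treatment, with medians of -0.89 and -0.65. Among them *S100a9*, a calgranulin of neutrophils and monocytes, was at 9.39 and 6.73 CPM in the controls, 2.38 and 3.16 with harmine and 3.82 and 2.65 with *Dyrk1a* shRNA, below both controls in all 4 treated libraries, with log2 fold changes of -1.54 (SE 0.51) and -1.35 (SE 0.51). The same held for *Ppbp*, a platelet chemokine, at 5.01 and 5.89 CPM in the controls and 2.29 to 4.47 in the treated libraries. *S100a8* overlapped the controls at -1.76 (SE 0.68) and -1.31 (SE 0.66), and *Pf4*, of platelets, was below both controls with harmine only, at -1.44 (SE 0.45). Other genes of these lists went the other way. *Cd68*, of the myeloid list, was above both controls in all 4 treated libraries, at 0.35 (SE 0.65) and 0.84 (SE 0.63). On the erythroid and platelet list *Itga2b* was above both controls with harmine only, at 0.74 (SE 0.51). *Epor* was above them with *Dyrk1a* shRNA only, at 0.57 (SE 0.40). Of the 4 genes tested on that list, 2 were above and 2 below 0 in each treatment, with medians of -0.06 and -0.03. None of these passed after adjustment over all genes in edgeR's test. Their part in the value of *Glrx* was not tested. Among all genes 833, or 7.85%, had all 4 treated libraries below both controls.

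The value for *Glrx* kept its sign in each of the 14 other settings tried, which ran from -1.12 to -0.67 with harmine and from -0.81 to -0.32 with *Dyrk1a* shRNA. Since *Glrx* was chosen by this sign in the same libraries, the kept sign is a description and no support for it. Replicate 1 was above replicate 2 for *Glrx* in every group, by 0.36 in the controls, 0.45 with harmine and 0.28 with *Dyrk1a* shRNA on the log2 scale. Without control replicate 1 its log2 fold change was -0.69 with harmine and -0.46 with *Dyrk1a* shRNA, and the fit without control replicate 2 gave -1.04 and -0.81. After trends with transcript length and GC content were removed from each library, it was -0.74 (SE 0.17) and -0.32 (SE 0.17).

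*Glrx5*, the mitochondrial glutaredoxin of iron-sulfur cluster assembly (chr12:105032688-105042906, plus strand), was at 72.0 and 42.1 CPM in the controls, 51.7 and 48.2 with harmine and 49.7 and 42.6 with *Dyrk1a* shRNA. All 4 treated libraries lay between the controls. Its log2 fold change was -0.22 (SE 0.24) with harmine and -0.33 (SE 0.24) with *Dyrk1a* shRNA, and turned to 0.24 and 0.12 without control replicate 1.

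*Glrx3*, a cytosolic glutaredoxin that carries iron-sulfur clusters and is also known as PICOT, a partner of protein kinase C theta in T cells, lies at chr7:137437614-137468594 on the plus strand. Its own row was at 97.6 and 80.8 CPM in the controls, 103 and 95.3 with harmine and 83.3 and 65.8 with *Dyrk1a* shRNA. The *Dyrk1a* shRNA libraries were wholly below the harmine libraries, and neither group separated from the controls. The log2 fold change against the control was 0.15 (SE 0.20) with harmine and -0.27 (SE 0.20) with *Dyrk1a* shRNA.

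The reads of *Glrx3* are shared with *Gm12669*, a processed pseudogene whose annotated sequence is 99.1% identical to *Glrx3* over 1014 aligned bases. RSEM divides a read that aligns to several loci, and the deposited expected counts were whole numbers in every library for the other 9 members but in no library for *Glrx3* or *Gm12669*, so the value of each of these rows is uncertain. Processed pseudogenes of *Prdx1* (up to 98.3% identical over the aligned bases), *Prdx2* (96.3%) and *Txn1* (95.8%) had no row of their own. Whole counts do not show whether their reads enter the rows of those members, which was not tested. *Gm12669* was at 28.2 and 21.9 CPM in the controls, 41.9 and 37.9 with harmine and 48.1 and 47.0 with *Dyrk1a* shRNA. Of the sum of both rows the pseudogene took 22.4% and 21.3% in the controls, 28.8% and 28.5% with harmine and 36.6% and 41.7% with *Dyrk1a* shRNA, so the 3 groups did not overlap in this share. The sum itself was at 126 and 103 CPM in the controls, 145 and 133 with harmine and 131 and 113 with *Dyrk1a* shRNA. The harmine libraries were wholly above the other groups in the sum, and the *Dyrk1a* shRNA libraries overlapped the controls. On the log2 scale the fold change of the sum was 0.28 (SE 0.19) with harmine and 0.09 (SE 0.19) with *Dyrk1a* shRNA, so that for *Dyrk1a* shRNA the sum and the row of *Glrx3* alone had opposite signs. *Gm12669* alone, which is no member, had log2 fold changes of 0.65 (SE 0.23, edgeR's quasi-likelihood test, Benjamini-Hochberg adjusted p = 0.903) and 0.91 (SE 0.23, adjusted p = 0.612).

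**Figure D2:**
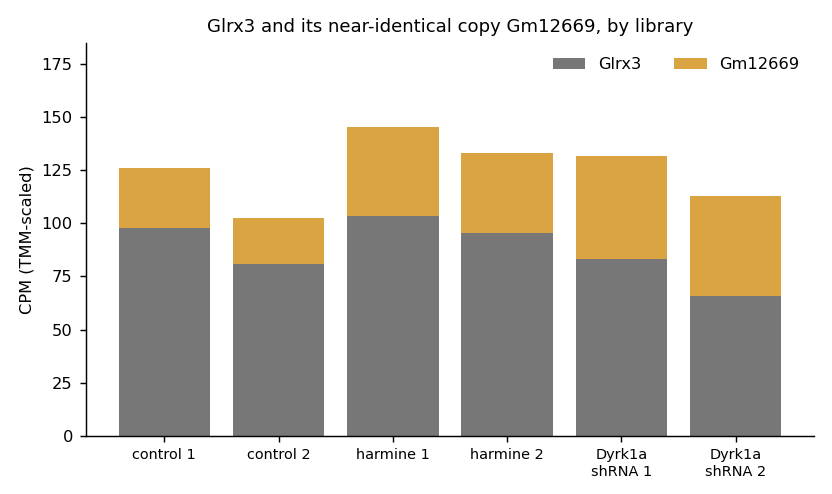
Level in CPM (bars from 0) of *Glrx3* in gray and of its pseudogene *Gm12669* stacked on it in yellow, for each of the 6 libraries. The yellow part grows from 21.3% and 22.4% of the bar in the controls to 36.6% and 41.7% with *Dyrk1a* shRNA, while the whole bars of these groups overlap, at 103 to 131 CPM.

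*Txn1*, the cytosolic thioredoxin (chr4:57943373-57956411, minus strand), was at 275 and 141 CPM in the controls, 175 and 154.5 with harmine and 131 and 146 with *Dyrk1a* shRNA. The controls lay almost as far apart as any libraries of this gene, with both harmine libraries between them and the *Dyrk1a* shRNA libraries around the lower control. Its log2 fold change was -0.35 (SE 0.25) with harmine and -0.60 (SE 0.25, interval -1.14 to -0.06) with *Dyrk1a* shRNA. The fit without control replicate 1 gave 0.21 and -0.04, that without control replicate 2 gave -0.74 and -0.99. *Txnrd1*, the selenoprotein that reduces cytosolic thioredoxin with NADPH (chr10:82833951-82897712, plus strand), was at 35.7 and 41.2 CPM in the controls, 31.5 and 40.3 with harmine and 45.5 and 38.8 with *Dyrk1a* shRNA. All 3 groups overlapped. The log2 fold change was -0.09 (SE 0.23) with harmine and 0.13 (SE 0.23) with *Dyrk1a* shRNA, and *Txnrd1* was the only member that was lower in control replicate 1 than in control replicate 2.

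*Prdx1*, an abundant cytosolic peroxiredoxin (chr4:116685544-116700822, plus strand), was at 167 and 138 CPM in the controls, 118 and 132 with harmine and 111 and 126 with *Dyrk1a* shRNA. All 4 treated libraries were below both controls, the nearest at 132 against 138. Its log2 fold change was -0.29 (SE 0.19, interval -0.69 to 0.10) with harmine and -0.37 (SE 0.19, interval -0.77 to 0.03) with *Dyrk1a* shRNA. *Prdx5*, which is found in mitochondria, peroxisomes and cytosol (chr19:6906697-6910106, minus strand), was at 143 and 100.1 CPM in the controls, 93.3 and 81.6 with harmine and 100.5 and 91.1 with *Dyrk1a* shRNA. The harmine libraries were below both controls, and the higher *Dyrk1a* shRNA library was level with the lower control. This gave a log2 fold change of -0.48 (SE 0.20, interval -0.91 to -0.05) with harmine and -0.35 (SE 0.20, interval -0.79 to 0.08) with *Dyrk1a* shRNA. *Prdx5* shares 409 exonic bases with *Trmt112* on the opposite strand, and the sources used here do not give whether the counting used strand. *Trmt112*, a methyltransferase activator, was at 134 and 64.0 CPM in the controls and 71.1 to 95.1 in the treated libraries, so it did not separate the groups.

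*Prdx2*, a cytosolic peroxiredoxin that is very abundant in red blood cells (chr8:84969587-84974834, plus strand), was at 429 and 246 CPM in the controls, 355 and 299 with harmine and 309 and 266 with *Dyrk1a* shRNA. Every treated library lay between the controls. Its log2 fold change was -0.05 (SE 0.23) with harmine and -0.24 (SE 0.23) with *Dyrk1a* shRNA. Beside it, *Hba-a1*, the globin with the highest value of those in the table, was at 0 to 1.88 CPM. *Prdx2* shares 177 exonic bases with *Rnaseh2a* and 173 with *Junb* on the opposite strand. *Junb*, an AP-1 subunit, was above both controls in all 4 treated libraries, at 263 and 238 CPM in the controls, 309 and 289 with harmine and 352 and 313 with *Dyrk1a* shRNA, while *Rnaseh2a* overlapped in all groups. The log2 fold change of *Junb* was 0.25 (SE 0.18) with harmine and 0.41 (SE 0.18) with *Dyrk1a* shRNA. The expected counts of *Prdx2* were whole numbers in every library, unlike those of *Glrx3*. How far reads of *Junb* or *Rnaseh2a* enter the row of *Prdx2* was not tested. *Prdx4*, the peroxiredoxin of the endoplasmic reticulum (chrX:155323918-155340754, minus strand), was at 156 and 96.8 CPM in the controls, 128 and 106 with harmine and 116 and 113 with *Dyrk1a* shRNA, again all between the controls. Its fold change on the log2 scale was -0.12 (SE 0.22) with harmine and -0.16 (SE 0.22) with *Dyrk1a* shRNA.

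*Prdx6*, the peroxiredoxin that draws on glutathione and also acts as a phospholipase (chr1:161240112-161251219, minus strand), was at 116 and 94.2 CPM in the controls, 113 and 107 with harmine and 130.3 and 104 with *Dyrk1a* shRNA. Its groups overlapped, and the mean was highest with *Dyrk1a* shRNA. The log2 fold change was 0.06 (SE 0.20) with harmine and 0.15 (SE 0.20) with *Dyrk1a* shRNA. Its near copy *Prdx6b* had a level above 0 in 1 library only, 0.841 CPM in control replicate 2.

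Against the control, 8 of the 10 genes had a log2 fold change below 0 with harmine, with a median of -0.17 against -0.02 over all genes tested, of which 52.5% were below 0. With *Dyrk1a* shRNA 8 of 10 were also below 0, with a median of -0.30 against -0.01 over all genes, of which 51.6% were below 0. The groups did not overlap for 3 members with harmine, *Glrx*, *Prdx1* and *Prdx5*, all lower, where 15.9% of all genes were lower without overlap. With *Dyrk1a* shRNA they did not overlap for 2, *Glrx* and *Prdx1*, both lower, where the share over all genes was 16.9%. Since these contrasts chose the set, the counts are descriptions. Of the 129 other redox genes tested, described below, 20 with harmine and 22 with *Dyrk1a* shRNA were lower without overlap. The shares over all genes beside these are the same 15.9% and 16.9%. No member was above both controls in both libraries of a treatment, and 19 and 21 of the 129 were. The share of all genes above both controls is not given here, so nothing is read from that count of members. The 95% intervals of the members reached 0.40 to 0.54 to either side on the log2 scale, against medians of 0.56 and 0.57 over all genes.

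The sign of 6 of the 10 members with harmine, and of 3 with *Dyrk1a* shRNA (*Glrx5*, *Prdx2* and *Prdx4*), depended on which controls were used. Control replicate 1 was above control replicate 2 for 9 of the 10 genes, with a median log2 difference of 0.43. In the harmine and in the *Dyrk1a* shRNA libraries replicate 1 was also above replicate 2 for 8 of 10, with smaller medians of 0.15 and 0.22. Without control replicate 1, 4 of 10 members were below 0 with harmine (median 0.22) and 5 of 10 with *Dyrk1a* shRNA (median -0.01). Without control replicate 2, 8 of 10 were below 0 in each, with medians of -0.42 and -0.53. *Glrx*, *Prdx1* and *Prdx5* were below 0 in all 3 fits with harmine. With *Dyrk1a* shRNA, *Glrx*, *Glrx3*, *Txn1*, *Prdx1* and *Prdx5* were. With the trends of transcript length and GC content removed, 6 members were below 0 with harmine and 7 with *Dyrk1a* shRNA. In that fit *Txn1* was at -0.17 and -0.25, *Prdx1* at -0.24 and -0.10, *Prdx5* at -0.30 and -0.17, *Prdx2* at 0.03 and -0.10, and *Prdx4* at 0.05 and 0.12.

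**Figure D3:**
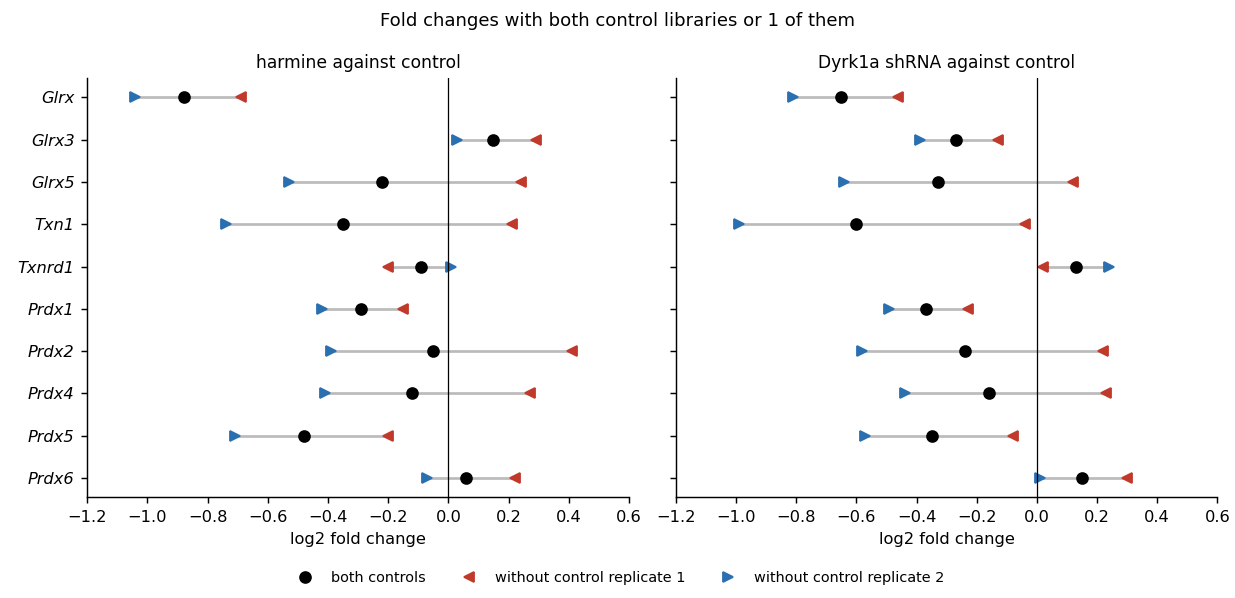
Log2 fold change of each gene against the control with harmine (left) and with *Dyrk1a* shRNA (right), from both controls (black), without control replicate 1 (red) and without control replicate 2 (blue), with a line at 0. *Glrx* stays left of 0 throughout, from -1.04 to -0.69 and from -0.81 to -0.46, whereas *Txn1* moves from -0.74 to 0.21 with harmine.

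Between the treatments, which share no library, none of the 10 genes passed the adjusted threshold of 0.05, where 0.00943% of all genes, 1 gene, did. At an unadjusted p under 0.05 there was 1 member, *Glrx3*, where 5.73% of all genes passed, and DESeq2 called 0 of the 10 by either p. *Glrx* was 0.23 higher with *Dyrk1a* shRNA than with harmine on the log2 scale (SE 0.21, 95% interval -0.21 to 0.68, edgeR's quasi-likelihood test, Benjamini-Hochberg adjusted p = 0.92). That is a fold of 1.18, and the interval holds 0. The row of *Glrx3* was lower with *Dyrk1a* shRNA by a log2 fold change of -0.42 (SE 0.19, interval -0.82 to -0.01, adjusted p = 0.852 by the same test). With the pseudogene summed to it, the difference was -0.19 (SE 0.18, interval -0.58 to 0.20, adjusted p = 0.928). *Txn1*, whose libraries with *Dyrk1a* shRNA were also wholly below those with harmine, was at -0.25 (SE 0.25, interval -0.78 to 0.28, adjusted p = 0.929). Of all genes 20.7% were lower without overlap, and these were 2 of the 10 members. The other 7 members overlapped, with log2 fold changes from -0.19 (*Prdx2*) to 0.22 (*Txnrd1*) and adjusted p from 0.923 to 0.995, and the median of the 10 was -0.05, with 6 below 0 where 50.1% of all genes were.

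**Figure D4:**
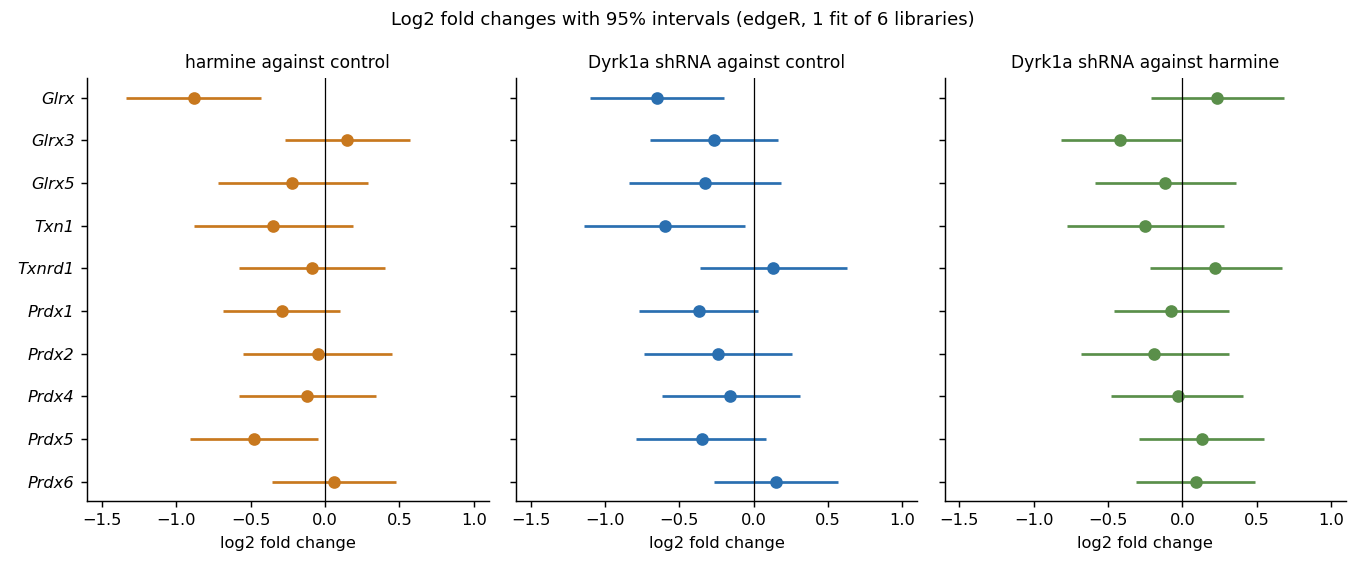
Log2 fold change (points) and 95% interval (bars) of each gene for harmine against control, *Dyrk1a* shRNA against control and *Dyrk1a* shRNA against harmine, with a line at 0. *Glrx* is furthest left in the first 2 panels, at -0.88 and -0.65, and its interval spans 0 in the third, from -0.21 to 0.68.

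The genes whose levels were most like *Glrx* over the 6 libraries were *Fut11*, a fucosyltransferase (Pearson r = 0.992 of log2 CPM), the cochaperone *Dnajc7* (0.990), *Cops5*, the catalytic subunit of the COP9 signalosome (0.980), *Pnkd* (0.978) and *Tbx21*, the T-bet transcription factor of Th1 cells (0.978). *Tbx21* was at 6.88 and 5.89 CPM in the controls, 3.86 and 2.90 with harmine and 4.20 and 4.11 with *Dyrk1a* shRNA, with both controls highest and harmine replicate 2 lowest, as for *Glrx*. At these low levels its log2 fold changes were -0.93 (SE 0.5) with harmine and -0.63 (SE 0.5) with *Dyrk1a* shRNA. The genes named here are the closest of 10607 genes over 6 libraries that include the libraries used to choose *Glrx*, and are a description. Among the other members *Prdx5* was the closest, with r = 0.928, then *Prdx1* at 0.631, *Txn1* at 0.591, *Glrx5* at 0.572, *Prdx4* at 0.507 and *Prdx2* at 0.414, while *Glrx3* (0.131), *Prdx6* (0.057) and *Txnrd1* (-0.097) were near 0.

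The other genes of thiol redox metabolism lay on both sides of 0. Of 160 genes on 9 lists, 143 were in the table and 129 were tested. With harmine 62 of them were above and 67 below 0 with a median of -0.02, and with *Dyrk1a* shRNA 55 were above and 74 below with a median of -0.03. No gene of these lists passed the adjusted threshold in edgeR's quasi-likelihood test or in DESeq2 in any of the 3 comparisons, where 1, 2 and 1 of all genes did (0.00943%, 0.0189% and 0.00943%). At an unadjusted p under 0.05 edgeR's test found 2 higher and 7 lower with harmine (5.3% of all genes in either direction), 7 higher and 8 lower with *Dyrk1a* shRNA (7.69%), and 4 higher and 3 lower between the treatments (5.73%). DESeq2 found 4, 8 and 2.

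**Figure D5:**
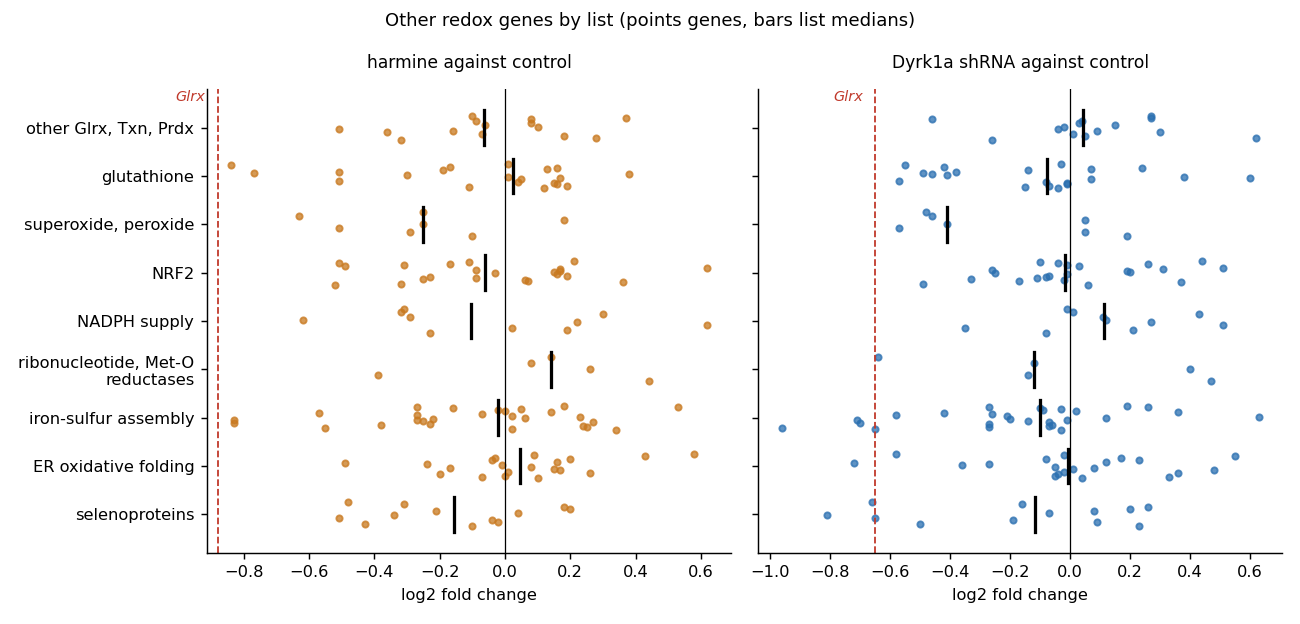
Log2 fold change of each tested gene (points) on 9 lists of other redox genes, with the median of each list (black bars), for harmine against control (left) and *Dyrk1a* shRNA against control (right), with a solid line at 0 and a dashed line at *Glrx*. The list medians lie between -0.25 and 0.14 on the left and between -0.41 and 0.12 on the right, all nearer to 0 than *Glrx* at -0.88 and -0.65.

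Of 14 other glutaredoxins, thioredoxins and peroxiredoxins tested, none was past the unadjusted threshold with harmine (median -0.07) and 1 was higher with *Dyrk1a* shRNA (median 0.04). That gene was *Nxn*, nucleoredoxin, at 31.9 and 47.1 CPM in the controls, 54.7 and 40.3 with harmine and 64.2 and 55.5 with *Dyrk1a* shRNA, highest in both *Dyrk1a* shRNA libraries. Its log2 fold change with the shRNA was 0.62 (SE 0.24, edgeR's quasi-likelihood test, Benjamini-Hochberg adjusted p = 0.612), or 0.33 without control replicate 1. *Sesn2*, a sestrin, had its only unadjusted p under 0.05 between the treatments, at 0.67 (SE 0.31, adjusted p = 0.859).

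Among 20 genes of glutathione synthesis and use, 1 was lower with harmine (median 0.02), and 1 was higher and 1 lower with *Dyrk1a* shRNA (median -0.08), all by unadjusted p. *Gsr*, glutathione reductase, was at 30.0 and 36.2 CPM in the controls, 43.1 and 31.1 with harmine and 50.8 and 49.1 with *Dyrk1a* shRNA, with a log2 fold change of 0.60 (SE 0.24, adjusted p = 0.612 by edgeR's quasi-likelihood test) for the shRNA. *Gpx1*, the main cytosolic glutathione peroxidase, was at 192 and 131 CPM in the controls, 104 and 123 with harmine and 101 and 117 with *Dyrk1a* shRNA. It was below both controls in all 4 treated libraries, at -0.51 (SE 0.21, adjusted p = 0.905) and -0.57 (SE 0.21, adjusted p = 0.612). Without control replicate 1 these were -0.22 and -0.28, and the fit without control replicate 2 gave -0.75 and -0.81. It was also the only gene past the unadjusted threshold among 7 of superoxide and peroxide removal, whose medians were -0.25 and -0.41. On that list *Sod2*, mitochondrial superoxide dismutase, was at 77.0 and 45.4 CPM in the controls and 43.8 to 56.5 in the treated libraries, with the controls again far apart.

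Among 22 NRF2 targets and regulators, 2 were lower with harmine and 1 was higher with *Dyrk1a* shRNA by unadjusted p, with medians of -0.06 and -0.02. *Nfe2l2*, which encodes NRF2, the transcription factor of the antioxidant response, was at 40.1 and 36.2 CPM in the controls, 25.6 and 28.7 with harmine and 42.8 and 35.6 with *Dyrk1a* shRNA. The harmine libraries were below all others, with a log2 fold change of -0.49 (SE 0.23, adjusted p = 0.928 by edgeR's quasi-likelihood test) against the control and 0.52 (SE 0.21, adjusted p = 0.83) for *Dyrk1a* shRNA against harmine. *Abcc1*, which exports glutathione conjugates, was likewise lowest with harmine, at 36.9 and 45.01 CPM against 57.6 and 60.6 in the controls and 63.8 and 59.1 with *Dyrk1a* shRNA. The fold change on the log2 scale was -0.52 (SE 0.21, adjusted p = 0.905) with harmine and 0.58 (SE 0.19, adjusted p = 0.754) between the treatments. Of 10 genes of NADPH supply, none passed by unadjusted p with harmine and 1, *Nadk*, NAD kinase, did with *Dyrk1a* shRNA, at 0.43 (SE 0.19, adjusted p = 0.622), and *Mthfd1*, of the folate cycle, did between the treatments at 0.75 (SE 0.32, adjusted p = 0.83). The list medians were -0.11 and 0.12. The 5 ribonucleotide and methionine sulfoxide reductases tested had none against the control (medians 0.14 and -0.12), with *Rrm1* at 0.26 (SE 0.21) and 0.40 (SE 0.21), and *Rrm2b*, the p53-inducible ribonucleotide reductase subunit, at -0.78 (SE 0.36, adjusted p = 0.855) between the treatments.

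Of 27 genes of iron-sulfur cluster assembly, the pathway of *Glrx3* and *Glrx5*, 1 was higher and 1 lower with harmine (median -0.02) and 1 higher and 3 lower with *Dyrk1a* shRNA (median -0.10) by unadjusted p. *Fam96b*, of the cytosolic iron-sulfur targeting complex, was at 70.7 and 58.1 CPM in the controls, 39.5 and 33.2 with harmine and 37.8 and 41.7 with *Dyrk1a* shRNA. All 4 treated libraries were below both controls, and its log2 fold changes were -0.83 (SE 0.21, adjusted p = 0.57 by edgeR's quasi-likelihood test) and -0.70 (SE 0.21, adjusted p = 0.612). *Bola2*, the partner of *Glrx3* in iron-sulfur transfer, was at 38.2 and 21.9 CPM in the controls, 17.5 and 24.2 with harmine and 18.3 and 13.5 with *Dyrk1a* shRNA. It lay below both controls with the shRNA only, where its log2 fold change was -0.96 (SE 0.31, adjusted p = 0.612), or -0.48 without control replicate 1.

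Of 20 genes of oxidative folding in the endoplasmic reticulum, 1 was higher and 1 lower with harmine and 2 were higher and 1 lower with *Dyrk1a* shRNA by unadjusted p, with medians of 0.05 and 0.00. *Txndc5*, a protein disulfide isomerase with thioredoxin domains, was above both controls in all 4 treated libraries, at 102 and 86.9 CPM with harmine and 110 and 95.5 with *Dyrk1a* shRNA against 69.5 and 71.5. Its log2 fold changes were 0.43 (SE 0.20, adjusted p = 0.928 by edgeR's quasi-likelihood test) and 0.55 (SE 0.20, adjusted p = 0.612). *Tmx3*, a membrane-bound member of that family, was below both controls, 115 and 129.6 CPM, at 89.2 and 84.5 with harmine and 78.7 and 69.7 with *Dyrk1a* shRNA. Of 12 genes of selenoproteins and their synthesis, 2 were lower by unadjusted p with harmine and 3 with *Dyrk1a* shRNA, and 9 and 7 were below 0 (medians -0.15 and -0.11). *Sep15*, a selenoprotein of the endoplasmic reticulum, was at 213 and 162 CPM in the controls, 157 and 140.0 with harmine and 110.4 and 105 with *Dyrk1a* shRNA. Its 3 groups did not overlap, and the log2 fold change was -0.34 (SE 0.19, adjusted p = 0.928) with harmine, or -0.14 without control replicate 1, and -0.81 (SE 0.19, adjusted p = 0.612) with *Dyrk1a* shRNA. *Selk*, another selenoprotein of that membrane, was at 95.1 and 90.9 CPM in the controls and 56.2 to 66.6 in the treated libraries, with log2 fold changes of -0.51 (SE 0.19) and -0.65 (SE 0.19).

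Calls among the other redox genes also depended on the controls. Without control replicate 2, edgeR's quasi-likelihood test called 6 of the 129 with harmine, *Fam96b*, *Gpx1*, *Gstp1*, *Mgst3*, *Sepw1* and *Sod1*, and 9 with *Dyrk1a* shRNA, *Bola2*, *Fam96b*, *Fth1*, *Gpx1*, *Gstp1*, *Park7*, *Sep15*, *Sod1* and *Sod2*. Over all genes that fit called 291 and 439. Without control replicate 1 it called 0 of 130 in both, and 82 and 80 of them were above 0. With both controls *Fam96b*, *Gpx1*, *Tmx3* and *Selk* were the genes named above from these lists that lay below both controls in both treatments by an unadjusted p under 0.05. *Vimp*, of the selenoprotein list, also did, at -0.48 (SE 0.22) and -0.66 (SE 0.23). *Txndc5* was above both controls in both treatments by the same bound. Both comparisons share the same controls, and these genes were named by smallest unadjusted p, or for *Vimp* after its values were seen. Without a bound on p, 7.85% of all genes lay below both controls in both treatments. The share of all genes that also met the bound is not given here, so nothing is read from these names.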

How the data were processed

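Polyadenylated RNA was primed with poly-dT, tagmented with Nextera and read on a MiSeq. Reads had been mapped to mm10 by the authors with TopHat (version 2.0.13 of TopHat2, by the submitters' processing notes), and RSEM had then given the expected counts of each gene from its known transcripts. The authors deposited these expected counts, not normalized, as 1 table. Neither the annotation nor the RSEM version nor the use of strand is stated in the sources used here.

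After rounding to whole numbers, the counts of all 6 libraries entered 1 fit of 3 groups with no block in edgeR 4.0.16 (R 4.3.3). Scaling was by TMM, the filter was filterByExpr at a minimum count of 10, the quasi-likelihood fit was robust, and p-values were two-sided and adjusted by Benjamini-Hochberg over 10607 genes at a threshold of 0.05. Intervals are at 95%. CPM are on the TMM scale, and levels per length divide counts by transcript length and scale all libraries to the same total. Total counts ranged from 1096345 to 3747648. Counts of replicates differed beyond sampling noise (chi-square over its degrees of freedom 10.4, 3.84 and 3.58), so none were treated as 1 library. The test was tested on simulated data.

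The members, the 9 redox lists, the marker lists and the rules were chosen with earlier results of these data known. The named genes are all members, up to 2 genes of each redox list by smallest unadjusted p over the 3 comparisons, the 5 genes with the highest Pearson r with *Glrx* (prior count 2), *Dyrk1a*, and overlapping or near-identical genes. *Hba-a1*, *S100a8*, *S100a9*, *Pf4*, *Ppbp*, *Cd68*, *Itga2b*, *Epor*, *Vimp*, and the genes called without control replicate 2, were named after their values were seen. Positions and transcript lengths are from GENCODE M21 (GRCm38, the assembly of mm10), which matched 23063 of 23420 symbols. Copies were found with minimap2 2.31 at 90% identity or more. Alternatives were scaling by library size or with DESeq2's size factors, DESeq2 1.42.0 with its Wald test, a filter of 50 counts or none, a block for the replicate number, splines (4 degrees of freedom) that removed length and GC trends, a fit of each compared pair by itself, *Glrx3* summed with its copy, and leaving out each library.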

Additional observations from a re-analysis of the deposited data

How the results depend on the processing

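The number of all genes called at the adjusted threshold was small and moved with most settings. With harmine it was 1, and became 3 with the Wald test of DESeq2, 20 with no filter, and 0 with a minimum count of 50, with each compared pair alone and with the replicate number as a block. With *Dyrk1a* shRNA it was 2, and became 28 with no filter, 4 with length and GC trends removed and 5 with the compared pair alone. Between the treatments it was 1, and became 3 with library size alone, 2 with DESeq2, 22 with no filter, 4 with the compared pair alone and 0 with the replicate block. Leaving out 1 library gave 1 to 291 genes with harmine, 1 to 439 with *Dyrk1a* shRNA and 0 to 5 between them, the 291 and 439 being without control replicate 2. The cause of these shifts was not tested.

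The median log2 fold change of the members ran from -0.415 to 0.215 with harmine, from -0.532 to -0.011 with *Dyrk1a* shRNA and from -0.079 to 0.002 between the treatments when 1 library was left out, the upper ends of the first pair being without control replicate 1. The labels do not say what samples of the same replicate number share. The correlation of replicate differences between groups was 0.114, 0.019 and 0.235, so the numbers were not taken as pairs for all groups, and what they share is not settled. With the replicate block the medians were -0.143, -0.284 and -0.048. Between the treatments, removing length and GC trends turned the log2 fold change of *Prdx1* to 0.132, *Prdx4* to 0.075, *Selk* to 0.007 and *Tmx3* to 0.106. Leaving out 1 library turned some small values, which ran with harmine from -0.001 to 0.569 for *Nxn*, -0.558 to 0.194 for *Sod2* and -0.082 to 0.386 for *Gsr*, with *Dyrk1a* shRNA from -0.062 to 0.289 for *Mthfd1*, -0.104 to 0.155 for *Nfe2l2* and -0.138 to 0.608 for *Sesn2*, and between the treatments from -0.17 to 0.01 for *Prdx1*, -0.167 to 0.112 for *Prdx4*, -0.084 to 0.242 for *Prdx6* and -0.172 to 0.063 for *Gpx1*. With 2 libraries a group and the smallest of them controls, depth and the gap between the controls limit every comparison with the control.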
